A study of Mus musculus with 2 samples.

Results

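The 9 genes described here act on the matrix outside the cell: 4 encode proteases (Mmp2, Mmp14, Mmp3 and Htra1) and 5 encode protease inhibitors or related serpins (Timp1, Timp2, Timp3, Serping1 and Serpinf1). They were taken by name from the rows of both plates, 9 of 17938 genes listed on either plate and of 16150 with at least 1 UMI (unique molecular identifier, a count of captured transcript ends) in the wells kept. Their values were measured in sorted Tomato+ periosteal cells of the tibia and femur, in which αSMACreER had switched on the Ai9 reporter after 2 tamoxifen injections of 75 mg/kg. The 2 days and 6 weeks cells came from aSMACreER/Ai9/Col2.3GFP females (chase 2 and 43 d, age 10.3 and 14.4 weeks). The 13 weeks cells came from aSMACreER/Ai9/R26-M2rtTA/TetOP-H2B-GFP females that had received doxycycline for 5 weeks from postnatal day 11 (chase 96 d, age 20.1 weeks). Each line was 1 pool of 2 to 3 mice, and 2 days and 13 weeks shared a plate. Time, age at labelling and at collection, strain, doxycycline and, for 6 weeks, plate thus cannot be told apart.

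The extracellular matrix of periosteum and tendon is rich in fibrillar collagen and proteoglycans, and matrix metalloproteases cleave its components. TIMPs are secreted proteins that bind the active site of metalloproteases, and serpins trap serine proteases by a change of shape. Pro-MMP2 is activated at the cell surface by MMP14 in a complex that holds TIMP2, so the same TIMP can take part in activation and in inhibition. Rgs5 is a gene of pericytes and other mural cells, while Thbs4, Fmod and Tnmd are genes of tendon and fibrous tissue.

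Of the wells assigned to a line, 503 held 200 or more genes and were kept. The 2 days line gave 181, the 6 weeks line 189 and the 13 weeks line 133. These wells held 445796 UMIs, with a median of 727 per well and a range of 246 to 3928. In 187 wells Thbs4, Fmod and Tnmd together gave 3 or more UMIs (called tendon gene wells below; 70, 68 and 49 in the order of the lines), and 118 wells held an Rgs5 UMI (35, 45 and 38). Both criteria were met by 13 wells, and neither by 211. Without Rgs5, which made the groups, the other 10 genes of the perivascular list stood at 44.9 UMIs per 10000 in wells that met the Rgs5 criterion only, against 14.7 in wells that met neither and 7.89 in wells that met the tendon gene criterion only. The endothelial list of 13 genes stood at 62.9, 14.3 and 2.80 UMIs per 10000 in the same order, and 64.8% of the Rgs5 only wells held an endothelial UMI. Ly6c1, which other cell types express too, gave 26.5% of the endothelial list's UMIs in Rgs5 only wells, 69.7% in wells with neither and 66.7% in tendon gene only wells, and without it the list stood at 46.2, 4.32 and 0.932. All 384 well barcodes were used on both plates. The 6 weeks plate also carried 168 wells with no line assigned, and osteoblast genes were detected in 98.9% of its kept 6 weeks wells, against 73.5% at 2 days and 62.4% at 13 weeks. Col1a1, which fibroblasts and tendon cells also express, gave 74.5% of the UMIs of this list, and the shares without it were 92.6%, 22.1% and 18.8%. Mmp13 and Ibsp, genes of osteoblast-lineage cells, had 809 and 2066 UMIs in those unassigned wells and 137 each in the 6 weeks wells. How far RNA of the unassigned wells enters the 6 weeks values of the 9 genes was not tested.

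Promoters are shown for the 3 members with the largest differences among the 4 with a matched promoter that were called in the Rgs5 comparison, a choice made after their values were seen: Timp1 and Serpinf1, which were higher in tendon gene wells and lower in Rgs5 wells, and Timp3, which was higher in Rgs5 wells. RefSeq promoters (GRCm38.p6, 250 bases before to 50 after the start site) were matched for 7 of the 9 members. Each is written 5′ to 3′ on the strand of its gene, and capitals mark every match, on either strand and with overlaps allowed, to the letters of 4 motifs. The windows are chrX:20869916-20870215 (plus strand), chr11:75422574-75422873 (minus strand) and chr10:86300162-86300461 (plus strand).
Timp1: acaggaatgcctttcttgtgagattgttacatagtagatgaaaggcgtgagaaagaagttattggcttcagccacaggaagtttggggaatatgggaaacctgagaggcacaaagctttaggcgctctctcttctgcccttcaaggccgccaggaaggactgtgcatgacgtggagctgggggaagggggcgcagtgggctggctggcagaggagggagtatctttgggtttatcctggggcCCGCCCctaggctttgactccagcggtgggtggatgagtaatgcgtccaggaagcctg
Serpinf1: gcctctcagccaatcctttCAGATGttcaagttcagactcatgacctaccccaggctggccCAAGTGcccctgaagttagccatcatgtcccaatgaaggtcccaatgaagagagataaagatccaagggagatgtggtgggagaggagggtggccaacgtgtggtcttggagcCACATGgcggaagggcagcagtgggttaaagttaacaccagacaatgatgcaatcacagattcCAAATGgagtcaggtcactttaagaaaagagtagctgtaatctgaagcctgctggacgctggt
Timp3: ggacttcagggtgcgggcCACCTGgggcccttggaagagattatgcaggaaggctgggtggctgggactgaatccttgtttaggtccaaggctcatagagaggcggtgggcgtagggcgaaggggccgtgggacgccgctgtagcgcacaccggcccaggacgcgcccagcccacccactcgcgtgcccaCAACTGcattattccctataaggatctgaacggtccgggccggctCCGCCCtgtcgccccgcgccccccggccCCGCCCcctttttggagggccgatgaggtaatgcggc
The Timp1 window held 1 GC box and no E-box, the Serpinf1 window held 4 E-boxes and no GC box, and the Timp3 window held 2 of each. Of the 32851 RefSeq promoters of the same length, a GC box, spelled GGGCGG, was found in 35.7%. An E-box, spelled CANNTG, was found in 72.3%. An AP-1 site, spelled TGANTCA, was found in 7.81% and a TATA box, spelled TATAAA, in 13.6%. Of the 7 matched members, only Mmp3 had an AP-1 site (46 bases before its start) and a TATA box match. These are matches of letters in 1 window, and no binding was measured.

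The members ranged widely in abundance. Serpinf1 gave 927 UMIs and was the 30th most abundant of 16150 genes, followed by Timp3 (735), Mmp2 (476), Timp2 (338), Serping1 (330) and Timp1 (170). Htra1 (69) and Mmp14 (61) were sparse, and Mmp3 gave 4 UMIs in 4 wells. The assay captures 3′ ends and counts molecules, so levels are UMIs per 10000 pooled UMIs with no scaling by gene length. Counting intervals are exact 95% Poisson intervals and cover counting error only. At 20.8 UMIs per 10000 (19.5 to 22.2) Serpinf1 and at 16.5 (15.3 to 17.7) Timp3 did not overlap each other or Mmp2 at 10.7 (9.74 to 11.7). The intervals of Timp2 at 7.58 (6.80 to 8.43) and Serping1 at 7.40 (6.63 to 8.25) did overlap, as did those of Htra1 at 1.55 (1.20 to 1.96) and Mmp14 at 1.37 (1.05 to 1.76). At least 1 member was detected in all but 41 of the 503 wells, and 146 wells held 4 or more of the 9.

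**Figure D1:**
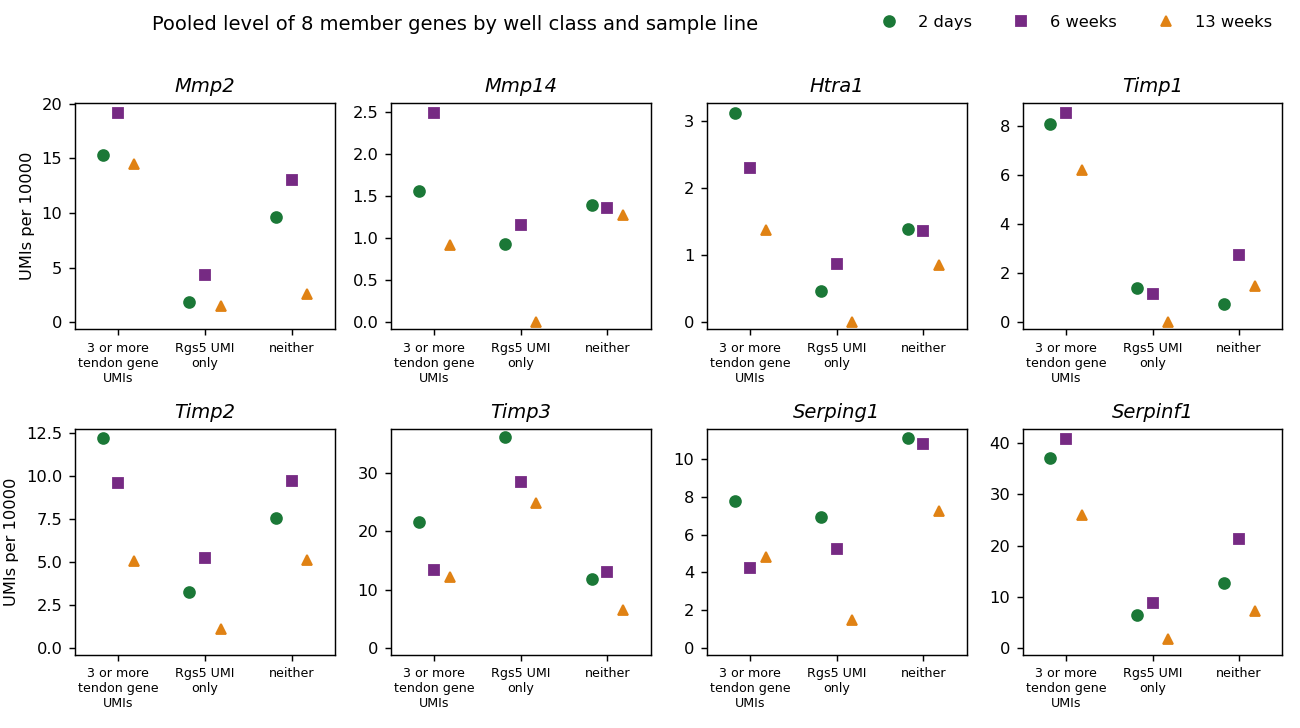
Pooled level of 8 members (UMIs per 10000, each panel with its own linear axis) in wells with 3 or more tendon gene UMIs, wells with an Rgs5 UMI only and wells with neither, 1 point per sample line. Mmp2, Timp1 and Serpinf1 stood highest in tendon gene wells in each line, Timp3 in Rgs5 wells (24.8 to 36.1) and Serping1 in wells with neither (7.24 to 11.1).

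The first comparison asked which members differ between tendon gene wells and the other wells of the same line. UMIs were summed per line and well group, and the 6 sums were tested with edgeR, with the line as a block. Levels in this and the Rgs5 comparison leave the genes that made the groups out of the total. The 3 lines are pools of mice that also differ in time, so a call speaks for these 3 pools only. The test sets each difference against a dispersion that borrows from all genes tested. Of 7 members that passed the filter on low counts, 4 were higher in tendon gene wells (Timp1, Serpinf1, Mmp2 and Htra1). The filter asked for 1.39 UMIs per 10000 in 3 of the 6 sums, which Htra1 reached in 3 tendon gene sums and 0 others and Timp1 in 3 and 1, so both passed only through the group where they were high and add no support to the count. Of the 5 members that reached it in all 6 sums, 2 were higher (Serpinf1 and Mmp2). With no filter all 9 were tested and 3 were higher (Timp1, Serpinf1 and Mmp2), where 0.817% of 16147 genes were higher and 1.29% lower, with a median log2 fold change of -0.33 over all genes. Across the 1125 genes tested, 10.8% were higher and 6.67% were lower. With edgeR 0 members were lower, also at an unadjusted p under 0.05, and 0 with DESeq2.

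Among the proteases, Mmp2 (gelatinase A, chr8:92827291-92853420 in GRCm38) degrades denatured and basement membrane collagen. At 2 days its level in tendon gene wells was 15.6 UMIs per 10000 against 7.95 in the other wells, and the pairs for 6 weeks and 13 weeks were 19.6 against 10.1 and 14.7 against 2.15. All 3 tendon gene levels lay above all 3 others, and the log2 fold change was 1.51 ± 0.34 (SE of the edgeR fit, edgeR adjusted p = 0.0222). Each ± here and below is derived from the edgeR F statistic, whose dispersion borrows from all genes tested. It is not the spread of the 3 line differences. Htra1 (chr7:130936111-130985660), a secreted serine protease that cleaves proteoglycans and other matrix proteins, was higher by 1.32 ± 0.32 (edgeR adjusted p = 0.0274) on 22, 13 and 6 UMIs in the tendon gene wells of the 3 lines. Its levels were 3.18 against 1.19, 2.36 against 1.20 and 1.40 against 0.538 UMIs per 10000. Mmp14 (chr14:54431612-54445364), the membrane-bound activator of pro-MMP2, had 29 UMIs in tendon gene wells and 32 in the others and did not pass the filter, with a pooled ratio of 1.47 (exact interval 0.856 to 2.5). The 4 UMIs of Mmp3 (stromelysin 1, chr9:7445822-7455975) all lay in wells with fewer than 3 tendon gene UMIs, and 0 UMIs among the 170295 of tendon gene wells allow up to 0.176 per 10000.

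Timp1 showed the largest fold change of the members. This inhibitor (chrX:20870166-20874735) stood at 8.24 UMIs per 10000 in tendon gene wells against 0.894 in the others at 2 days, at 8.71 against 2.19 at 6 weeks and at 6.32 against 0.942 at 13 weeks. The groups did not overlap, and the log2 fold change was 2.66 ± 0.30 (edgeR adjusted p = 0.00138). Timp1 was detected in 29.9% of tendon gene wells and in 10.1% of the others (18.7% and 4.65% with each well thinned to 300 UMIs; median depths 787 and 695.5 UMIs), against 6.67% of Rgs5 only wells, the lowest share of the 3 well classes. Timp2 (chr11:118301069-118355740), the TIMP of the pro-MMP2 complex, stood at 12.4 against 6.66, 9.80 against 8.17 and 5.15 against 3.63 UMIs per 10000 in the order of the lines, a log2 fold change of 0.66 ± 0.22 that missed the threshold (edgeR adjusted p = 0.0749). Timp3 (chr10:86300372-86349506), which is bound to the matrix rather than soluble, had a log2 fold change of 0.06 ± 0.21 (edgeR adjusted p = 0.869), and its direction turned in 5 alternatives. Against wells with neither criterion alone, with all Rgs5 wells left out, it was 0.69 ± 0.23 (edgeR adjusted p = 0.0414) and 4 members were called higher, Timp3 among them, where 13.2% of 869 genes were higher and 9.21% lower, while Htra1 was not tested.

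Serpinf1 (pigment epithelium-derived factor, chr11:75409769-75422701), a serpin without known protease inhibitor activity that acts on blood vessel growth and bone mineral, was the most abundant member in tendon gene wells. It stood at 37.7 against 11.3 UMIs per 10000 at 2 days, 41.8 against 16.9 at 6 weeks and 26.4 against 5.25 at 13 weeks. The groups did not overlap, and the log2 fold change was 1.85 ± 0.24 (edgeR adjusted p = 0.00224). Serping1 (C1 inhibitor, chr2:84765387-84775444), which blocks proteases of the complement and contact systems, had a log2 fold change of -0.40 ± 0.25 (edgeR adjusted p = 0.318). Its pooled level was 5.65 (4.55 to 6.94) in tendon gene only wells, 4.43 (3.12 to 6.11) in Rgs5 only wells and 10.1 (8.68 to 11.6) in wells with neither. The fibroblast or progenitor list of 10 genes was also highest in the last class, at 245 UMIs per 10000 against 176 and 54.0. Within it, Dcn (103 against 58.6) and Thy1 (1.62 against 1.46) stood higher in tendon gene only wells than in wells with neither. The other genes of the list stood lower there, such as Gsn (15.9 against 77.5).

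The alternatives counted here and for the Rgs5 comparison overlap, since 1 fit per member leaves out only the top well of that member. The top-well fits of Mmp2 and Timp2 gave the same numbers of genes, as did those of Htra1 and Serpinf1. Serpinf1 kept its call in all 28 alternatives. Timp1 did too, also with no filter on low counts (2.47 ± 0.33, edgeR adjusted p = 5.31e-11). Mmp2 kept its call in 24 of them. It was lost without the 2 days line (adjusted p = 0.0738) and without the 6 weeks line (adjusted p = 0.0837), with log2 fold changes of 1.83 and 1.84 in edgeR, in reads instead of UMIs (2.19, edgeR adjusted p = 0.0897) and with well groups set by shares of UMIs (1.36, edgeR adjusted p = 0.0504). Htra1 was tested in 18 alternatives and called in 11. Its call was lost with DESeq2 (log2 fold change 1.25, adjusted p = 0.627). With edgeR it was lost in reads (1.76, adjusted p = 0.475), with no filter on low counts (1.15, 0.183), with groups set by shares of UMIs (0.71, 0.177), without the 6 weeks line (1.48, 0.113) and without the 1 well with the most Htra1 UMIs (1.19, 0.0540), which is also the well with the most Serpinf1 UMIs. Without the 2 days line Htra1 was not tested, so 2 members were called in each fit without 1 of these lines. Over all genes, 57 were higher and 33 lower of 1076 without 2 days, and 45 and 19 of 1162 without 6 weeks.

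**Figure D2:**
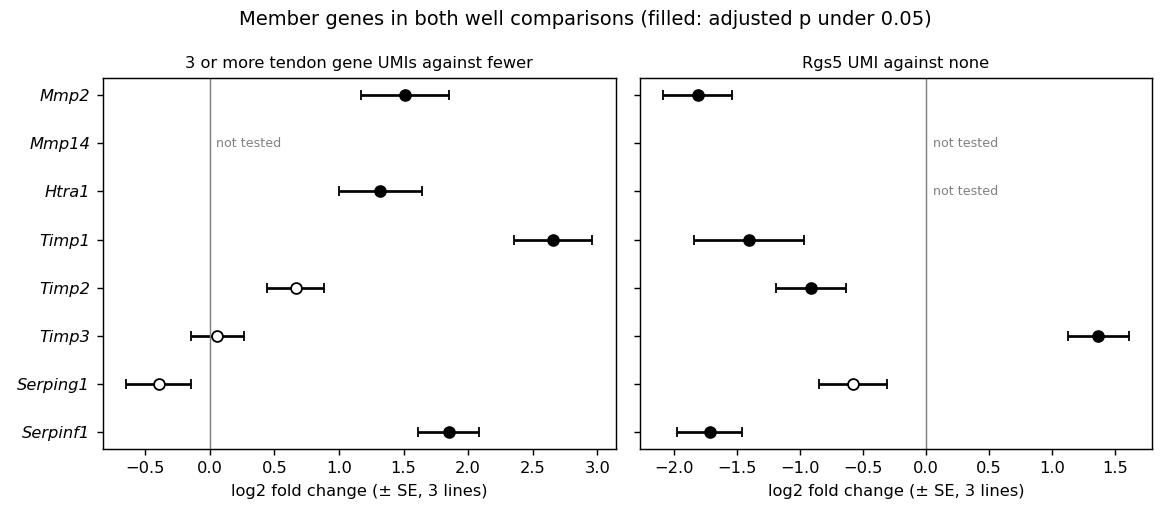
Log2 fold change (± SE derived from the edgeR F statistic) of the members in both edgeR comparisons, tendon gene wells against fewer on the left and Rgs5 wells against none on the right. Filled points passed an adjusted p of 0.05: Timp1 reached 2.66 on the left, and Timp3 at 1.37 is the member to the right of 0 in the Rgs5 comparison.

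The second comparison set the 118 wells with an Rgs5 UMI against the 385 wells without. Timp3 was higher in Rgs5 wells, and Mmp2, Serpinf1, Timp1 and Timp2 were lower, so 1 of 6 members tested was called higher and 4 were called lower. Across the 926 genes tested, 11.9% were higher and 11.1% were lower. Timp1 and Timp2 reached the filter's 1.63 UMIs per 10000 in 3 sums without Rgs5 and in 2 with it, so they passed through the wells where they were higher and add no support to the count. Of the 4 members that reached it in all 6 sums, 1 was higher (Timp3) and 2 were lower (Mmp2 and Serpinf1). With no filter all 9 were tested, and the same 5 genes and Serping1 were called, where 0.44% of 16149 genes were higher and 1.35% lower, with a median of -0.73 over all genes. The endothelial list moved with the Rgs5 criterion (57.3 against 9.04 UMIs per 10000), as did the tendon or fibrous list (24.3 against 122) and the fibroblast or progenitor list (68.3 against 214), and 174 of the 385 other wells were tendon gene wells. The Rgs5 wells were shallower, with a median of 603 UMIs against 760.

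Timp3 stood at 40.5 UMIs per 10000 in Rgs5 wells against 15.4 in the others at 2 days, 27.2 against 13.3 at 6 weeks and 25.0 against 8.49 at 13 weeks. Every Rgs5 level lay above every other level, and the log2 fold change was 1.37 ± 0.24 (edgeR adjusted p = 5.13e-06). In reads instead of UMIs the call was lost (1.18 ± 0.38, edgeR adjusted p = 0.111), and it was kept in the other 27 alternatives. Timp3 was detected in 72.9% of Rgs5 wells and 43.1% of the others, or 50% and 24.0% after thinning to 300 UMIs. Timp3 lies within Syn3 on the opposite strand (chr10:86055125-86498896), and 1 of its annotated exons overlaps a Syn3 exon. Syn3, a synapsin gene of neurons, had 53 UMIs against 735 of Timp3, and 35 of the 41 wells with a Syn3 UMI also held Timp3. The strand setting of the counting is not given in the sources used here, so reads of this pair cannot be told apart. The Syn3 to Timp3 ratio was 0.0471 in Rgs5 wells and 0.0871 in the others. Timp1 lies within Syn1 (chrX:20860511-20921004) with no shared exon, and Syn1 gave 1 UMI.

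Mmp2 fell to 1.65 UMIs per 10000 in Rgs5 wells against 12.5 in the others at 2 days, with 5.77 against 15.7 at 6 weeks and 2.53 against 8.26 at 13 weeks. The groups did not overlap (log2 fold change -1.81 ± 0.28, edgeR adjusted p = 1.41e-07). Serpinf1 gave 9.09 against 24.0, 9.61 against 30.4 and 3.16 against 16.5 in the order of the lines, again without overlap (-1.72 ± 0.26, edgeR adjusted p = 1.08e-07).

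Timp2 gave 5.79 against 9.47, 5.49 against 9.66 and 1.58 against 5.12 UMIs per 10000 (log2 fold change -0.92 ± 0.28, edgeR adjusted p = 0.00852). Timp1 gave 2.48 against 4.09, 2.20 against 5.16 and 0.316 against 3.84 (-1.40 ± 0.44, edgeR adjusted p = 0.0106), on 6, 8 and 1 UMIs in the Rgs5 wells. The Timp2 call was kept in 20 of 28 alternatives and the Timp1 call in 19 of 27. Both were lost with DESeq2 (adjusted p = 0.208 and 0.203), with no block for the line (edgeR adjusted p = 0.174 and 0.0774), in reads (0.0700 and 0.139), without the 6 weeks line (0.126 and 0.174), without the 13 weeks line (0.121 and 0.189) and in both fits without endothelial wells. Timp1 also lost its call with wells kept from 100 genes on (edgeR adjusted p = 0.0521), and Timp2 in the fit without tendon gene wells. Timp2 and Timp1 were lower within each line, but the levels of Timp2 overlapped across lines. Serping1 did not pass (-0.58 ± 0.27, edgeR adjusted p = 0.114). Mmp14 (8 against 53 UMIs), Htra1 (6 against 63) and Mmp3 (0 against 4) were too sparse to be tested.

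With all tendon gene wells left out, the 105 Rgs5 only wells were set against the 211 with neither criterion, in a test of 549 genes of which 10% were higher and 7.47% lower. Timp3 (log2 fold change 1.73 ± 0.26, edgeR adjusted p = 0.000479), Serpinf1 (-1.12 ± 0.27, 0.00876) and Mmp2 (-1.45 ± 0.40, 0.0217) kept their calls. Timp2 did not pass (-1.09 ± 0.37, edgeR adjusted p = 0.0565). Timp1 was too sparse to be tested there, with 3, 4 and 0 UMIs in Rgs5 only wells in the order of the lines, and at 2 days it stood higher in those wells than in wells with neither (1.39 against 0.759 UMIs per 10000).

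When all wells with an endothelial UMI were left out, 48 Rgs5 wells and 258 others remained, and 1 member was called. Timp3 kept its difference (log2 fold change 1.41 ± 0.32, edgeR adjusted p = 0.0110). Mmp2 (-0.97 ± 0.40, edgeR adjusted p = 0.187) and Serpinf1 (-0.94 ± 0.28, 0.0506) kept their direction at a smaller size and lost their calls, in a test of 334 genes of which 2.99% were higher and 4.79% lower. Timp2 (-0.07 ± 0.38, edgeR adjusted p = 0.930) and Timp1 (-0.93 ± 0.56, 0.445) also lost theirs. In Rgs5 only wells, Timp3 stood at 34.6 UMIs per 10000 (27.4 to 43.0, 37 wells) without an endothelial UMI and at 27.2 (23.2 to 31.7, 68 wells) with one. Timp2 stood at 6.48 (3.63 to 10.7) and 2.15 (1.15 to 3.68), Mmp2 at 5.19 (2.68 to 9.06) and 1.82 (0.910 to 3.26), and Serpinf1 at 10.4 (6.65 to 15.4) and 4.14 (2.68 to 6.11). All 3 were thus lower in the Rgs5 only wells that also held endothelial UMIs, with intervals that just overlapped for Timp2 and Mmp2 and did not for Serpinf1. By line, Timp3 in Rgs5 only wells without an endothelial UMI stood at 56.2, 26.4 and 14.3 UMIs per 10000 in the order 2 days, 6 weeks, 13 weeks, the last on 9 UMIs in 8 wells, against 14.6, 13.8 and 7.30 in wells without either. In Rgs5 only wells with an endothelial UMI the levels were 22.0, 29.0 and 28.0, so the pooled order of these parts rests on 2 days and turned at 6 weeks and 13 weeks. With only the wells left out that held an endothelial UMI other than Ly6c1, 54 Rgs5 wells and 336 others remained, and again Timp3 was the 1 member called (1.49 ± 0.31, edgeR adjusted p = 0.0400). Mmp2 (-0.89 ± 0.43, edgeR adjusted p = 0.401), Serpinf1 (-0.83 ± 0.25, 0.131), Timp1 (-0.67 ± 0.50, 0.642) and Timp2 (-0.04 ± 0.33, 1.00) did not pass, in a test of 522 genes of which 2.87% were higher and 1.34% lower. Without the 6 weeks line, or without the 13 weeks line, Timp1 and Timp2 lost their calls and 3 members remained called. Over all genes, 64 were higher and 55 lower of 895 without 6 weeks, and 101 and 88 of 1353 without 13 weeks.

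**Figure D3:**
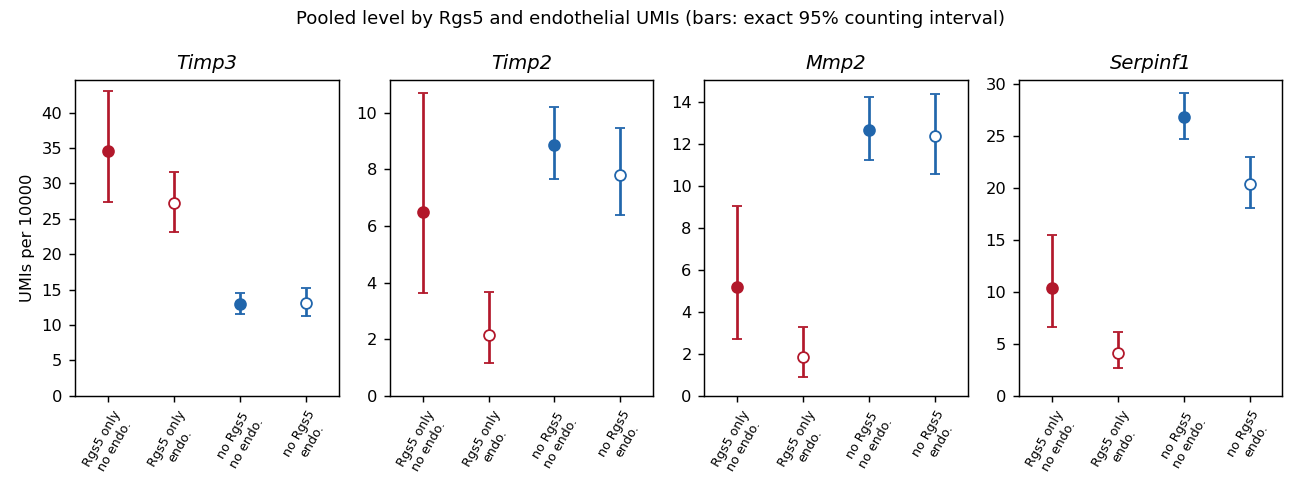
Pooled level (UMIs per 10000, exact 95% counting intervals, all lines together) of Timp3, Timp2, Mmp2 and Serpinf1 in wells split by Rgs5 and by endothelial UMIs. Timp3 was high in Rgs5 only wells both without (34.6) and with endothelial UMIs (27.2), with overlapping intervals and an order that turned at 6 weeks and 13 weeks, while the other 3 genes were lowest in Rgs5 only wells with endothelial UMIs.

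Other genes of extracellular proteolysis were taken from a list of 99, of which 86 had a UMI in the kept wells. In the tendon gene comparison 23 of them were tested, of which 8 were higher, 3 were lower and 12 did not pass. Over all 1125 genes tested there, 10.8% were higher and 6.67% lower. In the Rgs5 comparison 19 were tested, of which 1 was higher, 6 were lower and 12 did not pass. Over all 926 genes tested there, 11.9% were higher and 11.1% lower. Cpxm2, a secreted member of the carboxypeptidase family, differed most: it stood at 35.7, 30.7 and 44.2 UMIs per 10000 in the tendon gene wells of the 3 lines against 2.09, 1.30 and 1.88 in the others (log2 fold change 4.48 ± 0.23, edgeR adjusted p = 4.94e-05), and it was lower in Rgs5 wells (-2.56 ± 0.27). The proprotein convertase Pcsk5 (2.21), the lysosomal protease Ctsd (1.72), the collagen chaperone Serpinh1 (1.25), the cathepsin inhibitor Cst3 (1.18), the procollagen processing enhancer Pcolce (1.12) and the hyaluronan-binding Itih5 (0.95) were higher in tendon gene wells on the log2 scale. The aggrecan-cleaving protease Adamts1 (-1.50), Pcolce2 (-1.50) and the carboxypeptidase Cpe (-1.67) were lower there. These are the 10 largest of the 11 differences called. Pcsk5, Cpxm2, Adamts1, Pcolce2 and Cpe reached the filter's level in 3 sums of the group where they were higher and in 0 to 2 of the other, so they were tested only through that group, and their calls add no support to the counts. Cpe was the 1 gene of this list that was higher in Rgs5 wells, by 2.03 ± 0.42 (edgeR adjusted p = 8.93e-05). It reached the filter's level in 3 Rgs5 sums and 0 others, and Pcolce2 in 0 and 3, so here too both passed through the group where they were higher. The collagenase Mmp13 (-1.46), the uptake receptor Lrp1 (-1.28), Pcolce (-0.94), Pcolce2 (-1.78) and Serpinh1 (-0.80) were lower in Rgs5 wells. For Mmp13, 26 of the 31 UMIs at 2 days and 52 of the 137 at 6 weeks lay in 1 well each, and without the highest well of each line Mmp13 did not pass the filter. Pcolce2 was 3.06 UMIs per 10000 or less at every time.

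Over the chase no test is possible, because each time is 1 pool. At 13 weeks against 2 days, on the same plate, all 6 members with 50 or more UMIs had a ratio below 1, and 1 of them, Timp2, was at or below 0.5. Among the 772 genes with as many UMIs, 6.35% were 2-fold or more lower and 3.76% were 2-fold or more higher. The median ratio was 0.600 for the 6 members and 0.918 for all 772 genes, 61.7% of which were below 1. Timp2 went from 8.94 to 4.16 UMIs per 10000 (ratio 0.465, exact interval 0.330 to 0.646). The ratio was 0.543 for Serping1 (0.395 to 0.736), 0.589 for Serpinf1 (0.485 to 0.713), 0.611 for Mmp2 (0.463 to 0.798), 0.682 for Timp3 (0.558 to 0.829) and 0.749 for Timp1 (0.480 to 1.15). As a mean over wells the Timp2 ratio was 0.633, no longer past 2-fold. In reads, and with a minimum of 300 genes per well, more members were past 2-fold than in the main setting.

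The 13 weeks values differed between well classes. Mmp2 was 0.948 times its 2 days level in tendon gene only wells (0.678 to 1.31, 59 against 108 UMIs) and 0.266 times in wells with neither criterion (0.132 to 0.492, 12 against 76 UMIs), and these intervals did not overlap. In wells with neither, other lists also differed between the same lines: from 2 days to 13 weeks skeletal muscle genes went from 33.4 to 71.5 UMIs per 10000, red blood genes from 36.2 to 96.2, perivascular genes from 6.70 to 24.3, endothelial genes from 10.1 to 21.7, fibroblast or progenitor genes from 254 to 178 and osteoblast genes from 105 to 13.0. Their part in the Mmp2 value was not tested. Timp2 had 0.439 times its 2 days level in tendon gene only wells (0.255 to 0.725) and 0.674 times in wells with neither (0.401 to 1.10), with overlapping intervals. Timp3 had a ratio of 0.552 in tendon gene only wells, 0.555 in wells with neither and 0.688 in Rgs5 only wells. The last value pools a ratio of 0.255 (0.110 to 0.524, 9 against 50 UMIs) in Rgs5 only wells without an endothelial UMI and of 1.27 (0.797 to 2.07, 59 against 28 UMIs) in those with one, and these intervals did not overlap. The summed endothelial list went from 11 to 28.6 UMIs per 10000 between 2 days and 13 weeks and the osteoblast list went from 94.7 to 27.3. Without Ly6c1 and Col1a1 the lists went from 4.15 to 18.8 and from 25.6 to 3.31. Their part in the member values was not tested. Without wells with an endothelial UMI the 13 weeks ratio was 0.757 for Mmp2, 0.812 for Serping1, 0.970 for Timp1 and 0.600 for Serpinf1. In the same wells Timp2 (0.450) and Timp3 (0.466) were both at or below 0.5. With only the wells left out that held an endothelial UMI other than Ly6c1, 0 members were past 2-fold, with ratios of 0.566 for Timp2, 0.568 for Mmp2, 0.573 for Timp3, 0.626 for Serpinf1, 0.644 for Serping1 and 1.01 for Timp1.

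At 6 weeks against 2 days, on different plates, 0 of 8 members with 50 or more UMIs were past 2-fold in either direction. Among the 957 genes compared, 2.61% were 2-fold or more lower and 4.39% were 2-fold or more higher. Member ratios ran from 0.781 (Serping1, exact interval 0.608 to 1.00) to 1.23 (Mmp14, 0.683 to 2.22), with a median of 1.06 against 0.981 for all genes. Serpinf1 had an interval above 1 (1.16, 1.01 to 1.34), and Mmp2 was at 1.21 (0.992 to 1.49). In reads instead of UMIs, 2 members were past 2-fold, Mmp14 (2.26) among them, and Serpinf1 stood at 0.968.

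Of the other genes on the list, Adamts2, which trims procollagen, was past 2-fold at 13 weeks (0.400, exact interval 0.185 to 0.794). Mmp13 (4.83, 3.25 to 7.38), the fibroblast protease Fap (2.40, 1.39 to 4.30) and Cpe (2.23, 1.31 to 3.91) were past it at 6 weeks. Mmp13 UMIs at 2 days lay in 2 wells and at 6 weeks in 68, beside the 809 in the unassigned wells of that plate. Without the highest well of each line the Mmp13 ratio was 18.6 (7.68 to 58.9) on 85 against 5 UMIs, so its size rests on single wells.

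**Figure D4:**
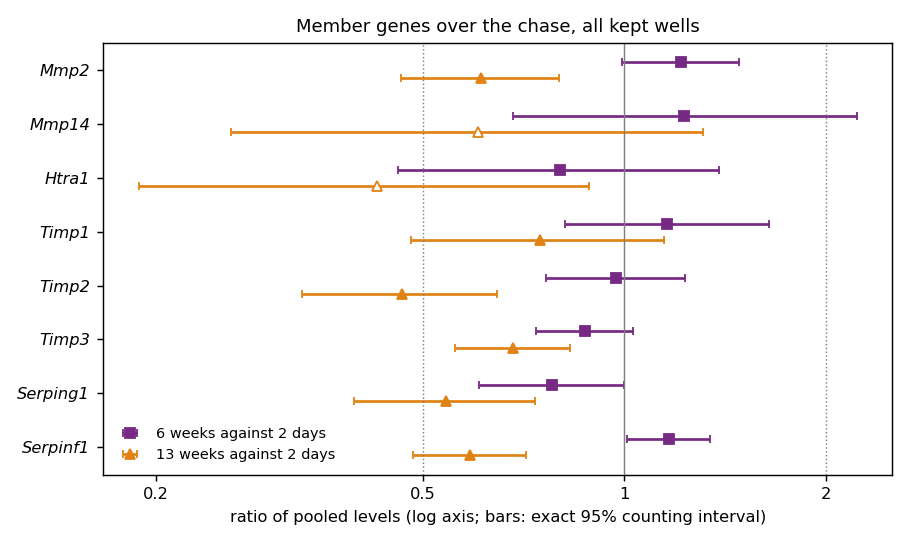
Ratio of pooled levels at 6 weeks (squares) and 13 weeks (triangles) to 2 days for 8 members on a log axis, with exact 95% counting intervals; open symbols mark fewer than 50 UMIs over both lines, and dotted lines mark 0.5 and 2. All 13 weeks points lie to the left of 1, and the Timp2 triangle (0.465) lies past the left dotted line among the filled points.

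The proteases were less abundant than the inhibitors in every group. Summed over kept wells, 610 protease UMIs stood against 2500 UMIs of inhibitors and serpins, a ratio of 0.244 (exact interval 0.223 to 0.267). Serpinf1 gave 927 of the 2500, and the ratio was 0.388 (0.353 to 0.426) without it and 0.435 (0.393 to 0.482) for the metalloproteases over the TIMPs. The 2 days line had a ratio of 0.230 (0.199 to 0.264), the 6 weeks line 0.270 (0.235 to 0.310) and the 13 weeks line 0.222 (0.177 to 0.277), with overlapping intervals. At 13 weeks both sides of the ratio were lower, with 8.40 protease and 37.9 inhibitor UMIs per 10000 against 14.4 and 62.8 at 2 days.

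The well classes differed more than the lines did. Wells with Rgs5 only had 33 protease against 365 inhibitor UMIs (ratio 0.0904, 0.0613 to 0.129), wells with neither 228 against 857 (0.266, 0.229 to 0.308) and wells with tendon genes only 335 against 1200 (0.279, 0.247 to 0.315). In the order of the lines, the Rgs5 only ratio was 0.0598, 0.131 and 0.05. In wells with neither it was 0.284, 0.282 and 0.169, and in tendon gene only wells 0.244, 0.306 and 0.319, so the Rgs5 only wells were lowest in each of the 3 lines. With 3 pairs of pools an exact paired permutation test cannot give a 2-sided p below 0.25, and none was run. The intervals at 13 weeks overlapped between Rgs5 only wells (0.0133 to 0.133) and wells with neither (0.103 to 0.267). In reads the ratio of wells with an Rgs5 UMI was lower than in UMIs. Without endothelial wells the ratio of tendon gene wells fell below that of the rest (values in the last section).

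The make-up of the inhibitor UMIs also differed. Timp3 gave 66.8% of them in Rgs5 only wells, 24.6% in wells with neither and 20.7% in tendon gene only wells. Serpinf1 gave 13.4%, 32.0% and 48.8% in the same order. With Serpinf1 left out, the ratio was 0.104 in Rgs5 only wells, 0.391 in wells with neither and 0.546 in tendon gene only wells. For the metalloproteases over the TIMPs alone it was 0.104, 0.523 and 0.566. On either definition the Rgs5 only wells remained lowest. Between wells with neither and tendon gene only wells, the intervals did not overlap without Serpinf1 (0.334 to 0.457 and 0.476 to 0.624) and did for metalloproteases over TIMPs (0.439 to 0.621 and 0.489 to 0.654).

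**Figure D5:**
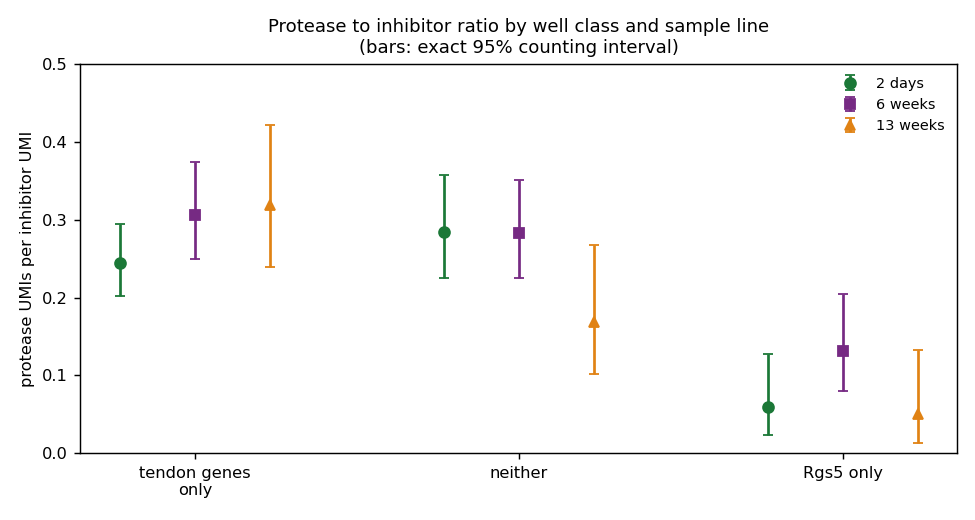
Protease UMIs (Mmp2, Mmp3, Mmp14 and Htra1) per UMI of inhibitors and serpins (Timp1, Timp2, Timp3, Serping1 and Serpinf1) in 3 well classes, 1 point per sample line with its exact 95% counting interval. The 3 Rgs5 only points (0.05 to 0.131) lie below the points of both other classes.

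Over all kept wells, proteases and inhibitors were often found in the same well. Of 240 wells with a protease UMI, 228 (95%) also held an inhibitor UMI, against 84.4% of the wells without a protease UMI, and after thinning to 300 UMIs the shares were 84.0% and 70.3%. The thinned shares were 90.2% and 68.7% at 2 days, 86.8% and 80.6% at 6 weeks and 68% and 59.4% at 13 weeks. At 13 weeks the order was the other way in wells with fewer than 3 tendon gene UMIs (33.3% of 9 wells with a protease against 52.9%) and in wells with neither criterion (25% of 8 against 48.8%). Inhibitor UMIs outnumbered protease UMIs in 408 wells, and the reverse held in 26. Both counts take Serpinf1 as an inhibitor: without it, 203 of the 240 wells with a protease (84.6%, against 74.1% of the others) held an inhibitor, inhibitors outnumbered proteases in 323 wells and the reverse held in 80. Mmp14 and Timp2, which meet in the pro-MMP2 complex, shared 29 of the 48 wells with Mmp14 (60.4%, against 34.9% of the other wells with Timp2), but after thinning Timp2 was found in 4 of 18 wells with Mmp14 (22.2% against 17.2%), a difference too small to read at this depth. Mmp2, Mmp14 and Timp2 were all 3 detected in 20 wells, and after thinning in 0 of 5 wells with Mmp2 and Mmp14.

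Across the 9 pools made of 3 lines and 3 well classes, the genes with the most similar profile were taken from 591 genes with 100 or more UMIs, by Pearson r of log2(UMIs per 10000 + 0.5). They are a description, since the pools share lines, plates and the well criteria. Mmp2 was closest to P4hb, Ppib and Serpinh1 (r of 0.953 to 0.965) and Serpinf1 to Bgn, Lrp1 and Col1a2 (0.946 to 0.969). Timp1 was closest to Lpar1, Prg4 and Lox (0.924 to 0.930), and Timp2 to Il11ra1, Fgfr1 and Lgals1 (0.948 to 0.95). Timp3 was closest to Pdgfrb (0.904), Chmp2a and Igfbp7, and Serping1 to Smoc2 (0.967), Igfbp5 and Cox7b.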

How the data were processed

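Tomato+ periosteal cells were index-sorted into plates and profiled by a plate-based Drop-seq protocol. The authors processed the reads with Drop-seq tools, aligned them with STAR 2.5.4a to mm10, and deposited raw UMI counts and raw read counts per gene and well, with no filter on wells. Picard is given as 2.9.3 in the submitters' processing notes. The strand setting is not given in the sources used here.

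The members, lists and tests were chosen with earlier results of these data known. Wells with a sample line and 200 or more genes were kept (181, 189 and 133 wells at 2 days, 6 weeks and 13 weeks; medians of 795, 672 and 726 UMIs). Levels are pooled UMIs per 10000 with exact 95% Poisson intervals, shares have exact Clopper-Pearson intervals in the tables, and ratios exact conditional binomial intervals. Intervals and the limit of 3 counts cover counting error only.

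Well groups were compared with edgeR 4.0.16 (TMM, filterByExpr, quasi-likelihood test, 2-sided, Benjamini-Hochberg, threshold 0.05) on UMIs summed per line and well group, with the line as a block. Nothing shows that the pools are more than 3 samples. The p-values and SEs rest on a dispersion that borrows from all genes tested. They do not measure the spread of a single gene among the pools alone. The genes that made a comparison's groups were left out of its test. The edgeR step was tested on simulated data before use. Between times, ratios of at least 2 or at most 0.5 with 50 or more UMIs over both lines were counted, with no test. Thinning drew 300 UMIs per well (20 shallower wells left out). Doublets were not called, and whether wells with Rgs5 and endothelial UMIs held RNA of more than a single cell was not tested.

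All 9 members are named. Of the 99 other genes, those called in either comparison are named (at most 10 by absolute log2 fold change in each), with up to 5 each way past 2-fold between times. For likeness, the 3 closest genes to each member with 100 or more UMIs are named. Alternatives were DESeq2 1.42.0, other factors, filters, gene minimums, thresholds, depths, read counts, wells or lines left out and other definitions of the ratio. The 168 wells without a line entered no comparison.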

Additional observations from a re-analysis of the deposited data

Results flagged for a closer look

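The 168 wells of the 6 weeks plate that carry no sample line hold 351800 UMIs of all genes, and the labels give them no group, so they entered no comparison. They were singled out because 8 of the 9 genes have UMIs there above the limit that a count of 0 allows. The UMIs numbered 795 for Serpinf1, 499 for Mmp2, 470 for Timp1, 175 for Timp2, 171 for Timp3, 107 for Mmp14, 105 for Serping1 and 13 for Htra1, while Mmp3 had 0. Of these wells, 144 held 200 or more genes. Over those 144, Timp1 had a median of 2.92 UMIs per 10000 per well and a maximum of 196, Mmp2 a median of 11 and a maximum of 47.8, and Serpinf1 a median of 19.0 and a maximum of 98.7. The kept 6 weeks wells held 14.9% as many Timp1 UMIs as these wells, 41.9% for Mmp2, 50.3% for Serpinf1 and 151% for Timp3, beside 6.63% for Ibsp, 1.93% for Bglap and 16.9% for Mmp13.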

How the results depend on the processing

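Depth limits Mmp3, Mmp14 and Htra1 most, and each time is 1 pool. The alternatives overlap, and some leave out only 1 well. Of 353 alternative values for fold changes of single members, 314 kept direction and side of the threshold, 32 lost and 2 gained a call, and 5 turned direction, all of them Timp3 in the tendon gene comparison: -0.13 without a filter, -0.054 with DESeq2, -0.044 in reads, -0.020 with thresholds of 5 and 2 UMIs and -0.10 without the 2 days line. Members called in that comparison numbered 4, and 2 in reads, with thresholds as shares of UMIs, without the 2 days line or without the 6 weeks line. In the Rgs5 comparison 5 were called, and 3 with no block, with DESeq2, without the 6 weeks line or without the 13 weeks line, 2 in reads and 1 without wells with an endothelial UMI, also where Ly6c1 is not counted. With wells of the other criterion left out it called 3. Leaving these wells out, not counting Ly6c1, leaving out the top well of each member or the wells highest in Mmp13 and leaving Serpinf1 out of the counts of wells were chosen after seeing the data. Without the top wells the tendon gene comparison called 3 or 4 and the Rgs5 comparison 5. At 13 weeks 1 member was past 2-fold, with 2 at a minimum of 300 genes or without endothelial wells, 3 in reads, and 0 as a mean over wells or without endothelial wells when Ly6c1 is not counted; at 6 weeks it was 0, and 2 in reads. Over all genes, higher and lower calls in the tendon gene comparison numbered 122 and 75, against 57 and 39 with DESeq2, 49 and 29 in reads, 45 and 19 without the 6 weeks line and 57 and 33 without the 2 days line, with 208 lower without a filter, 125 without the 13 weeks line, 48 without endothelial wells and 47 with thresholds as shares. In the Rgs5 comparison 110 and 103 became 41 and 56 with DESeq2, 41 and 75 in reads, 64 and 55 without the 6 weeks line, 71 and 218 without a filter and 10 and 16 without endothelial wells (15 and 7 when Ly6c1 is not counted), and 55 and 41 without tendon gene wells. The causes were not tested.

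Protease to inhibitor ratios without Serpinf1 were 0.352, 0.457 and 0.337 at 2 days, 6 weeks and 13 weeks, 0.518 and 0.290 in tendon gene wells and the rest, and 0.470 in wells without Rgs5. For metalloproteases over TIMPs they were 0.392, 0.514, 0.379, 0.537, 0.348 and 0.548 in the same order. In reads they were 0.196 at 2 days, 0.336 and 0.166 in tendon gene wells and the rest, and 0.0286 and 0.306 with and without Rgs5. Tendon gene wells and the rest gave 0.240 and 0.259 without endothelial wells, a change of order, and tendon gene wells gave 0.312 without the 2 days line. Rgs5 wells gave 0.0719 with thresholds of 5 and 2 UMIs and 0.0687 without the 6 weeks line. The other 73 ratios stayed within the counting interval.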
